A study of Mus musculus with 2 samples.

Results

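Inserts of a lentiviral siRNA library that target Gas6, protein S and the TAM receptors were examined on the 2 deposited arrays of a genome-wide survival screen. All probe sets with 1 gene symbol among Gas6, Pros1, Axl, Tyro3 and Mertk were taken, whatever their values, which gave 8 of 45037 probe sets and 5 of 18193 genes. Gas6, Axl and Tyro3 each had 2 probe sets, and Pros1 and Mertk each had 1. No probe set with several gene symbols included any of the 5 genes.

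The screened cells were ANSO4E, a mouse neural stem cell line that was derived from a transgenic animal. Both cultures were grown with basic fibroblast growth factor and epidermal growth factor and carried a GeneNet lentiviral siRNA library against the mouse transcriptome. The reference control culture received no MNNG, and the surviving cells were the cells left after exposure to 500 µM MNNG for 15 min, which was applied again after regrowth. MNNG (N-methyl-N′-nitro-N-nitrosoguanidine) damages DNA by alkylation. The transgene is not given in the sources used here, and the line stands for 1 source of cells. Recovered inserts were labeled with biotin by PCR and hybridized to a whole-genome mouse expression array from Affymetrix, with 1 array for the reference control (the control array) and 1 for the surviving cells (the survivor array). No replicate array was analysed, so no difference below has a replicate check and none carries a p-value.

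Each probe set consists of short probes that were designed against 1 transcript. Here its signal reads the abundance of library inserts whose sequence matches those probes, and it does not read the expression of the gene. The labels give genomic DNA as the source of the inserts, whereas the methods describe RNA copied into cDNA. The number of cells that carried an insert and the amount of insert recovered per cell cannot be told apart. An insert can match few of the probes of a set, and how well each set reads the inserts against its gene was not tested. Values are log2 signals as deposited, and a difference is always surviving cells minus reference control on the log2 scale. The place of a probe set among all others on an array is given as a description only, because probes bind with different strength and a brighter set need not stand for more inserts.

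Axl, Tyro3 and Mertk are the TAM receptors, a family of receptor tyrosine kinases. Gas6 and protein S, the product of Pros1, are their secreted ligands. Both ligands carry a domain rich in γ-carboxyglutamate, made by a vitamin K–dependent reaction, through which they bind phosphatidylserine on dying cells and bridge it to a receptor on a phagocyte. In the brain the receptors are known for the clearance of apoptotic cells by microglia and for survival signaling, and Axl and Mertk are also known for restraint of innate immune signaling.

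Most probe sets lay within a narrow band of low signal on both arrays. The 25th and 75th percentiles were 0.43 and 1.02 on the control array and 0.51 and 1.07 on the survivor array. Of all probe sets, 14.9% were higher in the surviving cells by over 0.5 and 11.2% were lower by over 0.5. A step of over 1 upward was found for 3.75% and a step of over 1 downward for 3.93%, and the study's ratio threshold of 2.5 was passed upward by 0.155% and downward by 1.01%. The 18 hybridization controls, which are bacterial and phage sequences spiked into each sample, were higher on the array of the surviving cells by 0.08 to 3.86, with a median of 2.77. Directions given below hold for the deposited scale, and centering the arrays on these controls turns every difference of the 8 probe sets negative.

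Of the 8 probe sets, 4 gave more signal on the survivor array, 3 gave less and 1 was equal, against 44.2%, 36.4% and 19.4% of all probe sets. Their median difference was 0.30 against 0.00 over all probe sets. All 4 that were higher differed by over 0.5 and by less than 1, and they covered Pros1, Axl, Tyro3 and Mertk. Only 1 probe set was lower by over 0.5, and this was the second probe set of Axl, which was lower by 4.02. Thus 0 of 8 were higher by over 1 and 1 of 8 was lower by over 1. The 4 of 8 that were higher by over 0.5 stand beside 14.9% of all probe sets, and the 1 of 8 that was lower by over 1 beside 3.93%, with no test of either. Linear signals of the 8 reached at most 54.1 on the control array and 11.6 on the survivor array, below the study's signal threshold of 1000. In the deposited table few probe sets of any gene exceed that signal, 3 on the control array and 5 on the survivor array. The study lists many more genes above it, so its threshold was not applied to these values as deposited. The linear signals given here are therefore not comparable with that threshold.

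**Figure D1:**
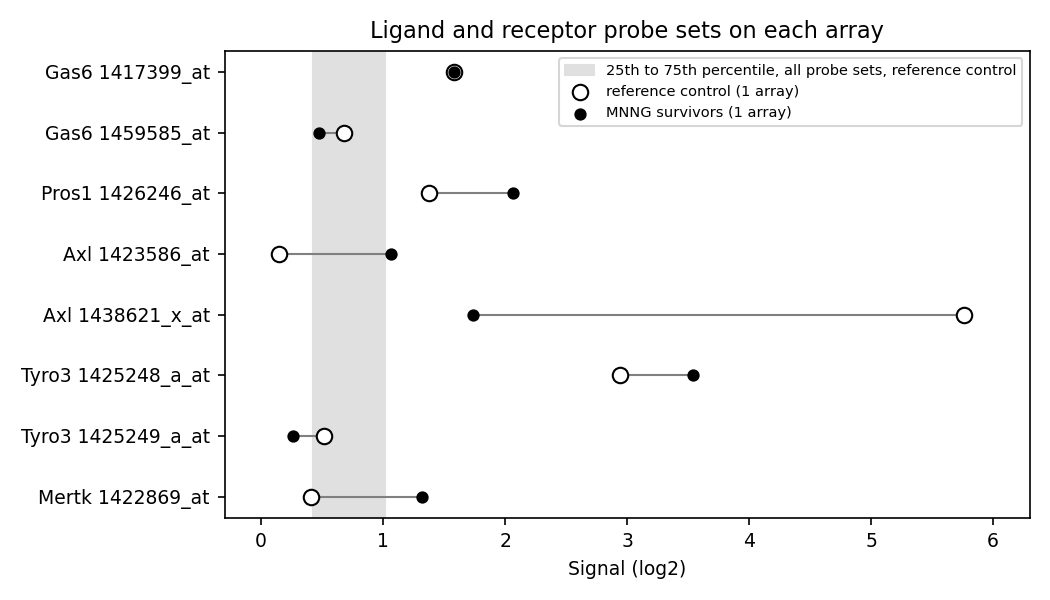
Log2 signal (horizontal axis) of the 8 probe sets of Gas6, Pros1, Axl, Tyro3 and Mertk (vertical axis) on the reference control array (open circles) and the array of the surviving cells (filled circles), with 1 array each. The grey band spans 0.43 to 1.02, the middle of all probe sets on the reference control array, and the longest line is the Axl probe set that went from 5.76 to 1.73.

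Gas6, the ligand that binds all of the TAM receptors, showed no gain of inserts at either probe set. Probe set 1417399_at gave a log2 signal of 1.58 on the control array and 1.58 on the survivor array, equal to the last deposited decimal. A value equal on both arrays within 2e-06 was common, with 8737 probe sets (19.4%) in the whole table. Probe set 1459585_at had 0.68 and 0.47, a difference of -0.21. Its control value lay near the middle of that array and its survivor value below the 25th percentile, and 28.2% of all probe sets had a lower difference. Probe set 1417399_at, in contrast, lay above 92.6% of all probe sets on the control array and 92.5% on the survivor array. The study lists Gas6 among its genes of cell death, a list that was chosen on this screen. There Gas6 has a large gain, with a signal over 1000 after MNNG and a log2 ratio over 2.5. The deposited values of its probe sets show neither. How the deposited log2 values relate to the signals behind that list is not given in the sources used here, so the equal values describe the deposited table only.

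Pros1 encodes protein S, which is also an anticoagulant cofactor in plasma and acts as a ligand of Tyro3 and Mertk. Its only probe set, 1426246_at, gave a log2 signal of 1.38 on the control array and 2.06 on the survivor array. The difference of 0.68 corresponds to a linear ratio of 1.61. The signal was above the 75th percentile of all probe sets on both arrays. A higher difference was found for 9.67% of all probe sets.

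Mertk, the TAM receptor of phagocytes and of the retinal pigment epithelium, gave a log2 signal of 0.41 on the control array and 1.32 on the survivor array at its only probe set, 1422869_at. The difference was 0.91, a linear ratio of 1.88. In the reference control the signal lay below the 25th percentile of all probe sets, and in the surviving cells it lay above the 75th. Of all probe sets, 5.12% had a higher difference.

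Tyro3, the TAM receptor that is abundant in the nervous system, gave opposite signs at its 2 probe sets. Probe set 1425248_a_at gave a log2 signal of 2.94 on the control array and 3.54 on the survivor array, a difference of 0.60. This set lay above 98.2% of all probe sets on the control array and above 99.6% on the survivor array. The size of its difference rested on the scaling of the arrays, as the difference was 2.24 after quantile normalization and 1.60 after loess. Probe set 1425249_a_at had 0.52 and 0.26, a difference of -0.25. It lay in the low band on the control array and below it on the survivor array, where 8.71% of all probe sets were lower, and 22.9% of all probe sets had a lower difference. The ending _a_at of both names marks probes that match several transcripts of 1 gene.

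Axl, the receptor with the highest affinity for Gas6, also gave opposite signs, and here the probe sets stood far apart. Probe set 1423586_at gave a log2 signal of 0.15 on the control array and 1.06 on the survivor array, a difference of 0.91. The reference control value was among the lowest on its array, with 5.78% of all probe sets below it. Probe set 1438621_x_at had 5.76 and 1.73, a difference of -4.02, or a linear signal of 54.1 against 3.33, which is 16.3 times lower in the surviving cells. In the reference control it lay above 99.5% of all probe sets, and 274 probe sets (0.608%) had a lower difference. The difference was -2.75 after quantile normalization and -2.61 after loess.

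As at 1438621_x_at, a fall of over 2.5 was found at most probe sets that were bright in the reference control. Falls as large as its own were not counted among them. Of the 301 probe sets above 5 (log2) on the control array, 272 were lower by over 2.5 in the surviving cells and 269 lay below 3. These sets were picked by their control value, which also enters the difference, so the choice itself favors a fall. Sets picked for a bright signal on the survivor array were not counted in the same way. The ending _x_at marks sets in which some probes also match sequences of other genes. Such sets made up 109 of the 301 bright ones, against 2441 of all 45037 probe sets. Of those 109, 101 were lower by over 2.5, beside the 272 of all 301, so the fall was not particular to sets with this ending. Whether inserts against Axl or against other genes gave the signal was not tested.

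**Figure D2:**
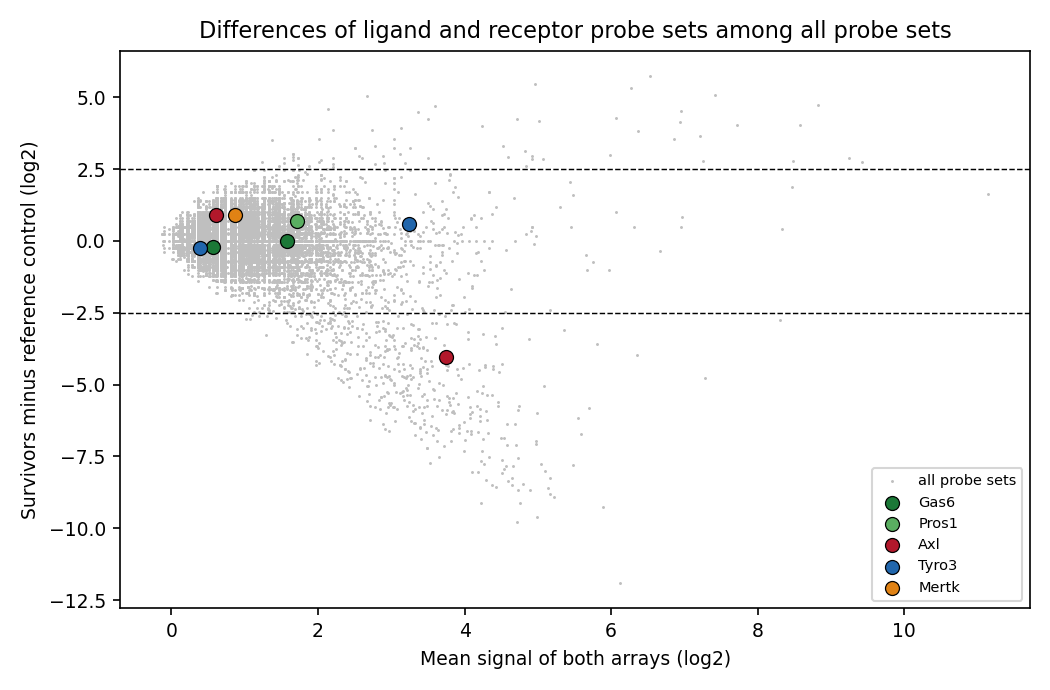
Log2 difference between surviving cells and reference control (vertical axis) by the average log2 signal over the arrays (horizontal axis), with all 45037 probe sets in grey and those of Gas6, Pros1, Axl, Tyro3 and Mertk in color. Dashed lines mark differences of 2.5 and -2.5, and 1 colored point, Axl at -4.02, lies beyond them, among the bright probe sets with lower signal in the surviving cells.

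The gap between the 2 probe sets of a gene was then set beside that of other genes. Of 4695 genes with exactly 2 probe sets, 1433 (30.5%) had differences of opposite sign, as Axl and Tyro3 did. The differences of the Gas6 probe sets lay 0.21 apart, and 76.4% of these genes had a gap at least as large. Those of the Tyro3 probe sets lay 0.85 apart, which 22.6% of genes equaled or exceeded. The gap at Axl was 4.94, and 23 of the 4695 genes (0.490%), Axl included, had one at least as large. For Axl and Tyro3, therefore, the arrays give no single direction for the gene.

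**Figure D3:**
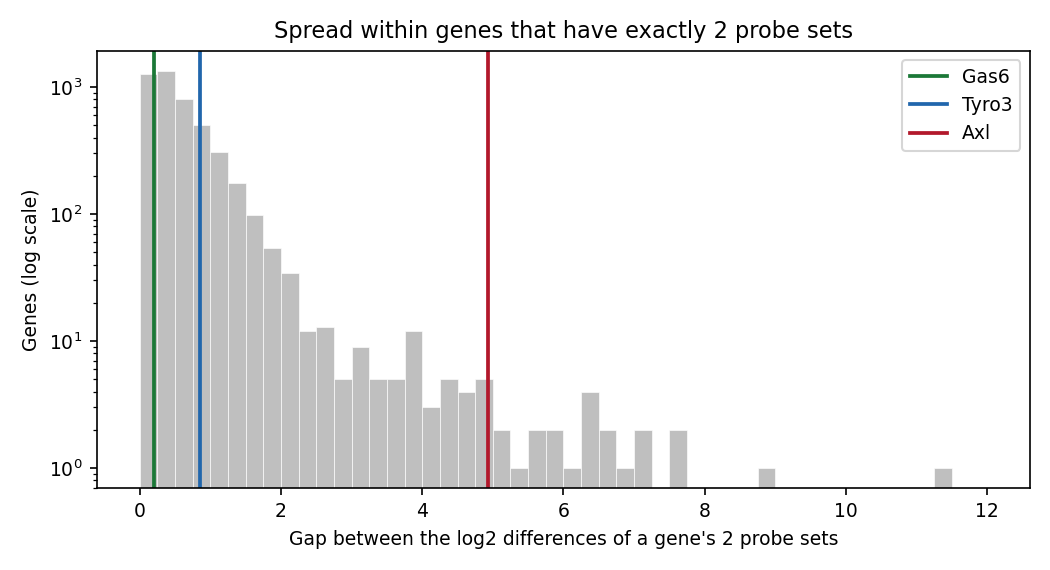
Number of genes (vertical axis, log scale) by the gap between the log2 differences of their probe sets (horizontal axis), for the 4695 genes with exactly 2. Colored lines mark Gas6 at 0.21, Tyro3 at 0.85 and Axl at 4.94, with Axl in the sparse right part of the distribution.

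The differences of Axl at 1423586_at and of Mertk were the same to the last deposited decimal, although their signals were not. Within 2e-06, this difference was found at 509 probe sets. Within the same tolerance, the difference of Pros1 was shared with 1141 probe sets, itself included, and that of Tyro3 at 1425249_a_at with 1599. In the whole table, counted without that tolerance, the 45037 differences took 1081 distinct values, and 98.5% of probe sets shared theirs with at least 1 other. Pairs of signals also recurred within 2e-06. Both values of Axl 1423586_at were found at 58 probe sets and both values of Tyro3 1425249_a_at at 57. The differences of these probe sets therefore came in a limited number of steps, and equal steps at Axl and Mertk do not single them out. In contrast, the differences of Tyro3 at 1425248_a_at and of Axl at 1438621_x_at were shared with few probe sets, 5 and 2 in all.

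Genes around the ligands and receptors were described from 5 lists, with 1 probe set per gene, the one with the highest average signal over the arrays. Over all 18193 genes, the median difference was 0.00, and 4.78% were higher by over 1 and 5.45% were lower by over 1. Of all genes, 7915 were higher, 6939 were lower and 3339 were equal. A step of over 0.5 was found upward at 2909 genes and downward at 2455. Ggcx, the γ-glutamyl carboxylase that matures Gas6 and protein S, and Vkorc1 and Vkorc1l1, the reductases that recycle vitamin K, were 3 of 3 higher, between 0.29 and 0.49 with a median of 0.43. With the probe set of lowest mean for each gene, the median of these 3 was -0.13. At the probe sets of highest average signal, none of the 3 differed by over 0.5. The other probe sets of Ggcx and Vkorc1l1 were lower, by differences of -0.13 and -0.62.

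Among 11 measured of 12 other proteins with a γ-carboxyglutamate domain, 3 were higher, 5 were lower and 3 were equal, with a median of 0.00. None differed by over 1. Proz, the plasma protein Z, gave a log2 signal of 1.12 on the control array and 0.23 on the survivor array, a difference of -0.89. Prrg3, a transmembrane protein of this group, had 1.28 and 0.36, a difference of -0.92.

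Of 8 genes that move phosphatidylserine across the plasma membrane, 7 were measured, of which 2 were higher, 2 were lower and 3 were equal. The median was 0.00. Xkr8, a scramblase that caspases activate, gave a log2 signal of 0.33 on the control array and 1.50 on the survivor array, a difference of 1.18. Its other probe set was equal on both arrays. Ano6, a calcium-activated scramblase, had 0.47 and 1.26, a difference of 0.78, and Atp11a, a flippase, had 1.31 and 0.56, a difference of -0.75. The other probe set of Atp11a had the opposite sign, at 0.49.

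All 19 genes of other bridging molecules, receptors and signals of clearance were measured, with 8 higher, 8 lower and 3 equal and a median of 0.00. Calr, calreticulin, which serves as an eat-me signal at the surface of dying cells, gave a log2 signal of 5.67 on the control array and 0.92 on the survivor array, a difference of -4.75. This probe set belongs to the same bright group of the reference control as the Axl set above, and the other Calr probe sets ran up to 0.23. Mfge8, a secreted bridge from phosphatidylserine to integrins, had 1.91 and 0.46, a difference of -1.44 at its only probe set. Adgrb1, the phosphatidylserine receptor BAI1, had 1.07 and 0.14, a difference of -0.92. Cd300lf, a receptor of myeloid cells, had 1.35 and 0.60, a difference of -0.75. These 4 were the only genes of the list lower by over 0.5, against 2455 of all 18193 genes. As many of the list were higher by over 0.5, against 2909 of all genes. The 4 higher by this step were Stab1 (0.68), Itgav (0.68), Cd36 (0.60) and Havcr2 (0.59). All of them are receptors or receptor subunits of clearance, and they are named here after their values were seen.

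For receptor shedding and signaling downstream, 16 of 18 genes were measured, with 7 higher, 7 lower and 2 equal and a median of 0.00. Pik3r1, the regulatory subunit of phosphoinositide 3-kinase, gave a log2 signal of 0.61 on the control array and 1.91 on the survivor array, a difference of 1.30, and its 4 probe sets ran from -0.25 to 1.30. Crk, an adaptor of the engulfment pathway, had 1.67 and 0.67, just over 1 lower, and the differences of its 5 probe sets ran up to 0.43. Ifnar1, the interferon receptor subunit through which TAM receptors are known to act, had 0.93 and 1.72, a difference of 0.78. Elmo1, which works with Dock1 to activate Rac, had 1.90 and 1.17, a difference of -0.73, whereas another of its 3 probe sets had 1.01.

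Outside the vitamin K cycle, each of these lists held genes of both directions. Marker genes were read in the same way, as signals of inserts and not as a check of cell type. Of 6 neural stem cell markers, 3 were higher and 3 were lower, all within 0.5. Of 6 markers of microglia and macrophages, 2 were higher and 4 were lower. The largest difference was at Csf1r, a cytokine receptor of macrophages, at a probe set that went from 6.35 to 0.61. It was another of the bright probe sets of the reference control, and the differences of the 3 Csf1r probe sets ran from -5.74 to -0.19.

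**Figure D4:**
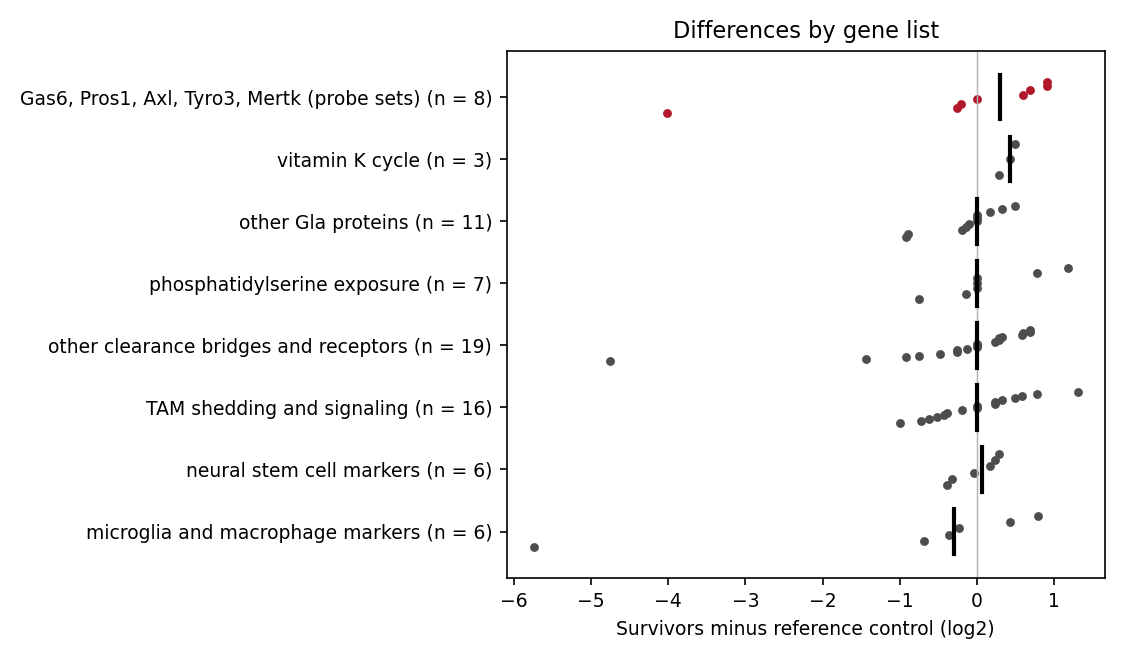
Log2 difference between surviving cells and reference control (horizontal axis) for the 8 probe sets of Gas6, Pros1, Axl, Tyro3 and Mertk (red) and for genes of 5 pathway lists and 2 marker lists (grey, 1 probe set per gene), with vertical bars at the medians. Medians lie between -0.30 and 0.43, and the points beyond -4 are Axl, Calr and Csf1r.

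The directions were then read under other scalings of the arrays. Under median centering, quantile normalization, loess and a floor at the 25th percentile, Pros1, Mertk, Axl at 1423586_at and Tyro3 at 1425248_a_at were higher in the surviving cells, and Axl at 1438621_x_at was lower. Centered on the hybridization controls, all 8 were lower, with Axl at 1423586_at and Mertk closest to 0 at -1.85. Under that scaling 44818 of the 45037 probe sets were lower by over 1 as well.

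**Figure D5:**
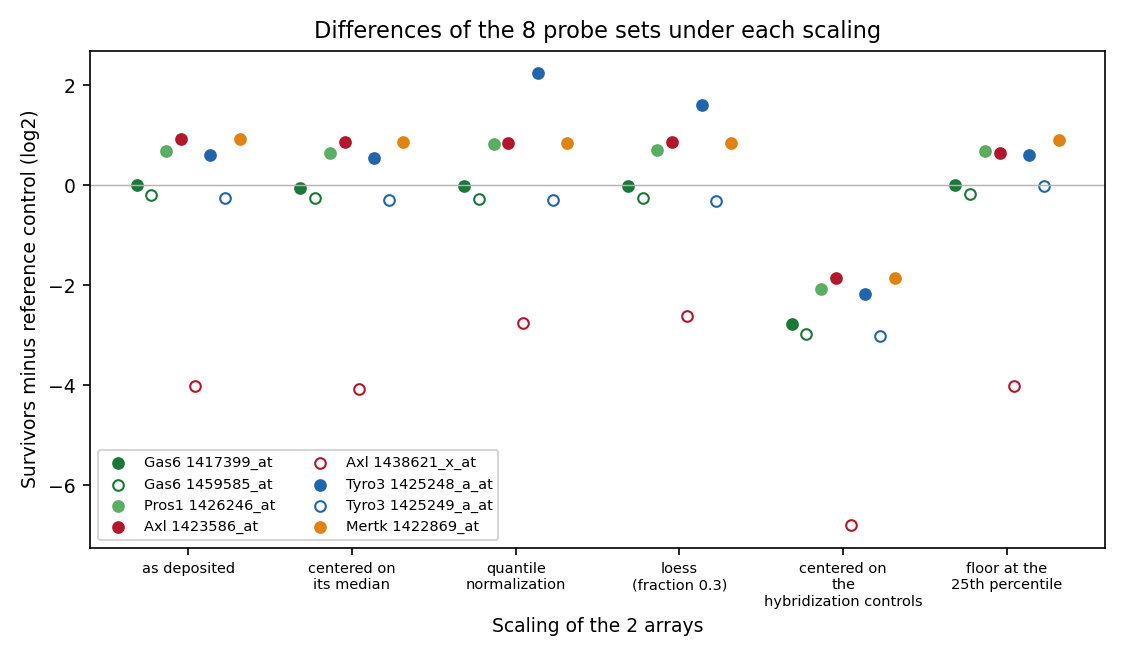
Log2 difference between surviving cells and reference control (vertical axis) for each of the 8 probe sets under 6 scalings of the arrays (horizontal axis), with filled circles for the first probe set of a gene and open circles for the second. The points keep their sides of 0 in most columns, those of Gas6 and of Tyro3 1425249_a_at lie between -0.32 and 0.00 outside the column of hybridization controls, and in that column all points lie at or below -1.85.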

How the data were processed

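Each condition was analysed on 1 array. The values that the authors deposited are log2 signals, 1 per probe set, and the submitters' processing notes name RMA, a method of background correction, quantile normalization and summary over probes. Its version is not given in the sources used here, and the paper also names the library supplier's program and R. The deposited distributions were not equal, with 99th percentiles of 4.11 and 2.68.

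Values were used as deposited after 64 Affymetrix control probe sets were set aside. Gene names came from the array annotation, and of 34945 probe sets with 1 symbol, 34741 took a current symbol by gene ID (assembly GRCm38.p6, for names only). Differences within 2e-06 counted as equal. With 1 array per condition no test could be made, and precision is limited by the number of arrays. Members, lists and the rule for named genes (all member probe sets, up to 4 genes per list differing by over 0.5) were chosen with earlier results of these data known. The rule also named the 3 probe sets nearest in level to the Axl set with the largest difference, which are not reported because levels of different probe sets are not comparable. Of the steps, only the count of differences over 1 was checked on simulated data, with planted gains and losses. Sequences of inserts and probes were not used here. Python 3.11.15, numpy 2.4.6, pandas 2.3.3, statsmodels 0.14.6 and matplotlib 3.10.9 were used.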

Additional observations from a re-analysis of the deposited data

How the results depend on the processing

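No paired analysis was possible because each condition has 1 array, and for the same reason no array could be left out. Without replicates, a shift of over 0.45 in a difference or a median was called moved (1 scaled median absolute deviation over all probe sets), and a count when it changed by over 1.5 times. Of 97 recomputed values, 73 stayed within these limits and 24 moved. Centering each array on its median and a floor at the 25th percentile moved none. Quantile normalization gave -2.75 for Axl 1438621_x_at and 2.24 for Tyro3 1425248_a_at, loess gave -2.61 and 1.60, and under each the number of probe sets higher by over 1 was 1 in place of 0. Centering on the hybridization controls lowered every difference by 2.77, to -2.77 and -2.97 for Gas6, -2.08 for Pros1, -1.85 and -6.79 for Axl, -2.17 and -3.02 for Tyro3 and -1.85 for Mertk, with a median of -2.47 and 8 of 8 lower by over 1. The median of the vitamin K cycle was then -2.34 and that of each other pathway list -2.77. Over all probe sets, those higher by over 1 numbered 1689 and those lower 1771 as deposited, against 22 and 44818 on the hybridization controls. Without sets ending in _x_at or _s_at, 0 of the remaining 7 probe sets were lower by over 1, and with a threshold of 0.5 in place of 1, 4 were higher. With the probe set of lowest mean per gene, the median of the vitamin K cycle was -0.13. The cause of these shifts was not tested beyond what each setting itself does.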
